A study of Homo sapiens with 4 samples.

Results

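Of the 7024 filtered chromatin loops of SW480, 1338 (19.0%, exact 95% interval 18.1 to 19.99) were also found in HCT116, LS513 and SW620, and these loops found in all 4 lines are described here against the 2831 SW480 loops (40.3%) found in no other line. A loop counted as found where its 2 anchors each overlapped, by 1 bp or more, the 2 anchors of a filtered loop of the other line. The remaining SW480 loops were found in 1 other line (1858) or in 2 (997). All 4 filtered tables together held 184225 loops. HiChIP for acetylated lysine 27 of histone H3 (H3K27ac) pairs the DNA segments that were ligated to each other inside fixed nuclei and keeps the pairs that carry the mark. Each line, SW480 (labelled Dukes' type B colorectal adenocarcinoma), HCT116 (colorectal carcinoma), LS513 (Dukes' type C colorectal carcinoma) and SW620 (Dukes' type C colorectal adenocarcinoma), was untreated and gave 1 library, so that nothing below could be checked against a replicate and no test was made. SW480 and SW620 are known to come from the primary tumour and a later metastasis of the same patient.

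H3K27ac marks active promoters and enhancers, and loops between marked segments join promoters with enhancers, enhancers with each other, or promoters that lie near each other. Some promoters and enhancers are used in nearly every cell of a tissue, while others differ between tumours. In colorectal cancer the WNT pathway is commonly active without its ligand. Its targets include the feedback inhibitors AXIN2, a scaffold of the complex that destroys beta-catenin, and NKD1, which binds Dishevelled.

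The strength of a loop is given as its paired-end tags (PETs), the read pairs that joined its 2 anchors. The filtered tables held 13885 PETs in SW480, with HCT116 at 81579, LS513 at 222113 and SW620 at 152421. Values are also given as normalised PETs, which are PETs per 1000000 filtered PETs of the library. On that scale 1 PET was worth 72.0 in SW480, 12.3 in HCT116, 4.50 in LS513 and 6.56 in SW620. All positions are on hg19. No gene annotation of that build was used, so genes were placed from general knowledge of hg19 and kept where both ends of the gene had shifted alike, within 10 kb, against RefSeq on GRCh38.p14 (186 of 193 genes). A gene start was counted at an anchor where it lay in it or within 2.5 kb of it, and no share of loops with a gene start is given.

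Promoters at the ends of 4 strongly shared loops are printed because the values of those loops follow below. They are the 250 bases before the gene start used in the RefSeq promoter table (GRCh38.p14), 5′ to 3′ on the strand of the gene. EHF, an epithelial ETS-family transcription factor, is at chr11:34624007-34624256 on the plus strand. PHLDA1, a pleckstrin homology-like domain protein, is at chr12:76031777-76032026 on the minus strand, and CCNL1, a cyclin linked to RNA splicing, is at chr3:157160148-157160397 on the minus strand. TRIB3, a stress-induced pseudokinase, is at chr20:381045-381294 on the plus strand, and RBCK1, a subunit of the linear ubiquitin ligase, is at chr20:408049-408298 on the plus strand. Capitals mark matches on either strand, none of which overlap. The motifs were the GC box GGGCGG, the box named for its letters CCAAT, and the cyclic AMP response element (CRE), whose letters are TGACGTCA.
EHF: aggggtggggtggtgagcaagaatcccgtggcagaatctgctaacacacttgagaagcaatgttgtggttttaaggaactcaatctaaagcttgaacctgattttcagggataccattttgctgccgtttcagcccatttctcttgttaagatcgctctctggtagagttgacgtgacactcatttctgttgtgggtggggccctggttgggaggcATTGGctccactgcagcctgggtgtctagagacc
PHLDA1: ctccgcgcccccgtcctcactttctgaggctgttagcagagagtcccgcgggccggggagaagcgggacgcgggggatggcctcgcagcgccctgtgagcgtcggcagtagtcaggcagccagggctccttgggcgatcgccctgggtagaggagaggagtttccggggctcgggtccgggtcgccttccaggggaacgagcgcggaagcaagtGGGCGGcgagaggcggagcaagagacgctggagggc
CCNL1: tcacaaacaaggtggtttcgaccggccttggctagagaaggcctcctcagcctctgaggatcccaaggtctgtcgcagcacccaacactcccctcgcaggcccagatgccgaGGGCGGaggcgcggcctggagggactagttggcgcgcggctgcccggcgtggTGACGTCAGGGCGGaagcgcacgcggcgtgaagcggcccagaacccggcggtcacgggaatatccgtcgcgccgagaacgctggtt
TRIB3: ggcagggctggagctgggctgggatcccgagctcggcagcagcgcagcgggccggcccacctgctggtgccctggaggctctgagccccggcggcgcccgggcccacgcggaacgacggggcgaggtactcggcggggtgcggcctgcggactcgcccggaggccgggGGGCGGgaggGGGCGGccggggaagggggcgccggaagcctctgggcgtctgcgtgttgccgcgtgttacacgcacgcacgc
RBCK1: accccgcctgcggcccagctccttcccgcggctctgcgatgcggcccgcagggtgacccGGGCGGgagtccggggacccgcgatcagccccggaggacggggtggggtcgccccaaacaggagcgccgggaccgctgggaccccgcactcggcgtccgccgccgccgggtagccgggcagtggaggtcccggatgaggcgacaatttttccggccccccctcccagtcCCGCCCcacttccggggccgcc
The PHLDA1, CCNL1, TRIB3 and RBCK1 windows hold 1, 2, 2 and 2 GC boxes, the CCNL1 window also holds the CRE, and the EHF window holds a CCAAT box on the reverse strand. Of the 83 placed genes with a start at an anchor of a loop found in all 4 lines, 63 had a promoter in the table. GGGCGG was in 49 of them (77.8%), against 42.6% of all 35116 windows, and CCAAT in 23 (36.5%), against 32.0%. The CRE was in 2 (3.17%, CCNL1 and JUND, against 1.65%), the AP-1 motif TGANTCA in 4 (6.35%, against 6.57%) and the TCF/LEF motif ATCAAAG in 1 (1.59%, against 2.26%). The TATA box motif TATAAA was in 4 (6.35%, against 10.7%). The 63 are 1 window per gene, while the 35116 are all windows of the promoter table and were not reduced to 1 per gene. No count was made for placed genes without a shared loop. These genes were chosen by hand, so the shares describe these promoters and not those of all shared loops.

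Loops found in all 4 lines carried more PETs in SW480 than loops found in no other line. Of the shared loops, 795 (59.4%, interval 56.7 to 62.1) had 2 or more PETs in SW480, against 652 (23.03%, 21.5 to 24.6) of the loops found in no other line and 35.7% of all SW480 loops. Their mean was 3.07 PETs, against 1.44, and the strongest held 42 PETs, against 23. With 5 or more PETs the shares were 18.2% (interval 16.2 to 20.4) and 2.76% (2.18 to 3.43). Loops found in 1 and in 2 other lines lay between, with 35.6% and 39.9% at 2 or more PETs. The authors' deposited mango value, read as an FDR, was under 0.01 for 371 shared loops (27.7%), against 189 loops found in no other line (6.68%) and 14.5% of all SW480 loops. Read the other way, 12.02% of the SW480 loops with 1 PET were found in all 4 lines, and 57.3% (interval 48.1 to 66.1) of the 124 loops with 10 or more PETs. In no other line were found 48.2% of the loops with 1 PET and 7.26% (3.37 to 13.3) of those with 10 or more. These intervals cover counting error only and treat loops as independent, while many loops share an anchor.

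**Figure D1:**
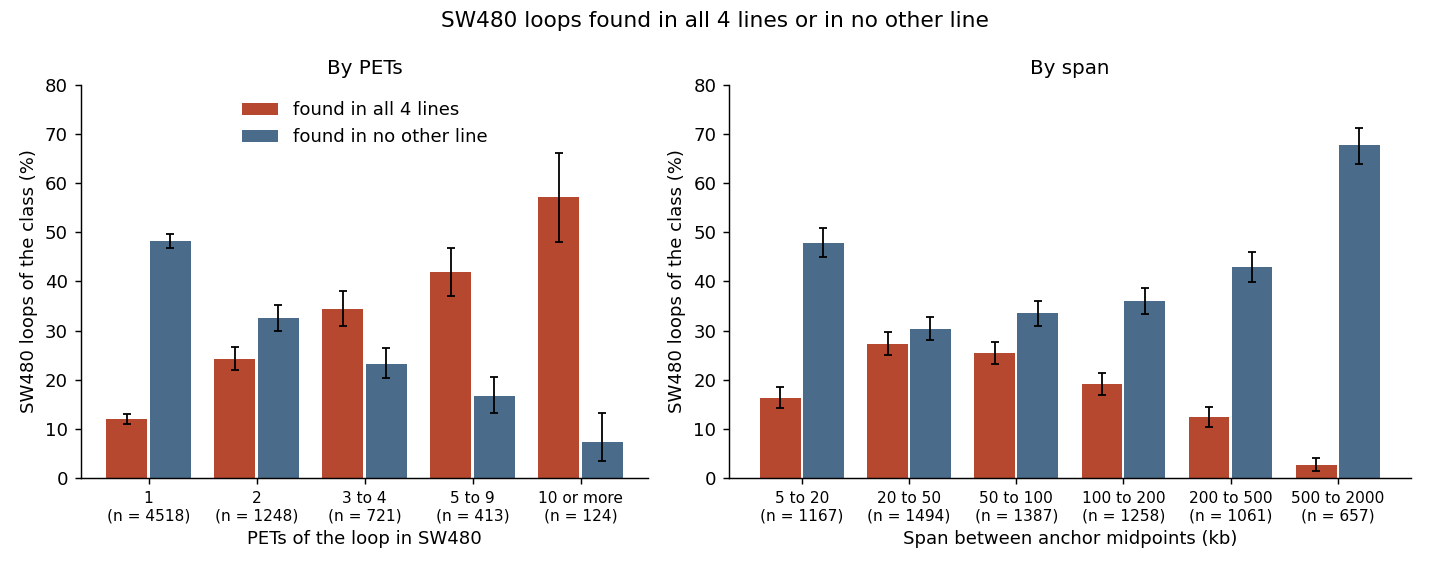
Percent of SW480 loops found in all 4 lines (red) and in no other line (blue), by PETs of the loop in SW480 (left) and by span between anchor midpoints (right); bars are percent of the class, lines are exact 95% intervals, and n is the number of SW480 loops in the class. The share found in all 4 lines is 12.02% at 1 PET and 57.3% at 10 or more, and by span it is highest, 27.3%, at 20 to 50 kb and lowest, 2.59%, at 500 to 2000 kb.

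Shared loops were shorter, but not among the stronger loops. The median span, from anchor midpoint to anchor midpoint, was 58.4 kb (quartiles 29.3 and 111.9) for loops found in all 4 lines and 91.7 kb (28.0 and 291.9) for loops found in no other line. A span of 500 kb or more was seen for 17 shared loops (1.27%) and 445 loops found in no other line (15.7%). Shared loops were also fewer at the short end, where 14.2% of them and 19.7% of the loops found in no other line spanned under 20 kb. Among SW480 loops with 1 PET the medians were 70.3 kb for shared loops and 132.8 kb for loops found in no other line. Among those with 2 or more PETs they were 52.1 kb and 31.5 kb, and with 5 or more PETs 46.6 kb and 19.8 kb, so there the shared loops were the longer ones. At matched span the difference in PETs stayed. Between 20 and 50 kb 65.0% of shared loops and 35.1% of loops found in no other line had 2 or more PETs, and between 200 and 500 kb the shares were 42.7% and 10.1%.

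**Figure D2:**
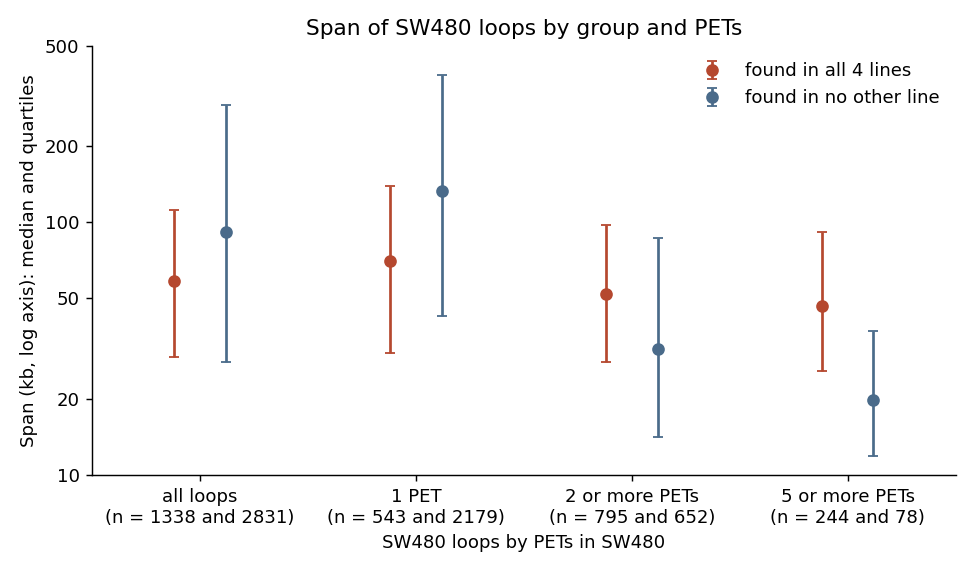
Span of SW480 loops in kb (log axis) for loops found in all 4 lines (red) and in no other line (blue), for all loops and by PETs in SW480; points are medians, lines run between the quartiles, and n gives both groups with the shared loops first. The shared loops are shorter among all loops (58.4 against 91.7 kb) and longer among loops with 2 or more PETs (52.1 against 31.5 kb).

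The anchors of shared loops were somewhat wider than those of loops found in no other line and held more PETs that joined an anchor with itself. The mean width of the 2 anchors had a median of 9.42 kb in loops found in all 4 lines, against 8.10 kb in loops found in no other line. A wider anchor meets the overlap rule more easily, so width is a description only, and with every anchor set to 5 kb the medians of the original widths were 7.54 kb and 9.01 kb, the other way round. Under the main rule, loops found in 1 and in 2 other lines had medians of 9.57 and 9.76 kb. The wider anchors were therefore not particular to loops found in all 4 lines. PETs that join an anchor with itself come from the unfiltered tables, and the rule does not use them. They had a median per anchor of 27 in SW480 for shared loops, against 13.5 for loops found in no other line, and per kb of anchor 2.69 against 1.51. Loops found in 1 and in 2 other lines lay between, at 19.5 and 24.5 per anchor. Among SW480 loops whose anchors overlapped an anchor in every line, the medians were 27 for the 1338 shared loops and 18.5 for the 401 loops found in no other line. Per kb of anchor they were 2.69 and 2.09. At the same places the median counts were 103 and 58.5 in HCT116, 166 and 94 in LS513, and 114 and 65 in SW620, so the anchors of shared loops were the higher ones in every library. The counts of the other lines were summed over all overlapping anchors and not set per kb. A shared loop also had to meet anchors with a filtered loop in each line, so this order is a description only. At least 1 PET to another chromosome was present at 90.0% of shared loops and 78.8% of loops found in no other line. Loops found in 1 and in 2 other lines were near the shared ones, at 86.3% and 88.9%. The number of SW480 loops per anchor, averaged over the 2 anchors, differed less, with medians of 3.5 and 3. That median was also 3.5 for loops found in 1 and in 2 other lines.

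Most loops found in no other line lacked an anchor in another line. Of the 2831, 2430 (85.8%) lacked an anchor at 1 end or at both ends in at least 1 other line. In every other line 1554 (54.9%) lacked an anchor at 1 end or at both. No anchor at either end was seen for 33.2% in HCT116, 32.9% in LS513 and 15.8% in SW620. Only 334 (11.8%) had separate anchors at both ends in all 3 other lines without a filtered loop between them. By line, separate anchors were present for 33.5% of these loops in SW620 and for 15.5% in each of HCT116 and LS513. For 231 loops (8.16%) a single anchor of at least 1 other line overlapped both ends, by 1 bp or more at each. That share was 37.2% among the 78 such loops with 5 or more PETs and 37.6% among the 559 under 20 kb. Among the 901 that spanned 200 kb or more it was 0. Of all SW480 loops, 2929 (41.7%) had an anchor at both ends in every line. Of these, 1338 (45.7%) were found in all 4 lines and 401 (13.7%) in no other line, and the 401 had a median span of 389.8 kb, with 17.5% at 2 or more PETs. How far the anchor sets and the depth of each library set which loops were shared was not tested.

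**Figure D3:**
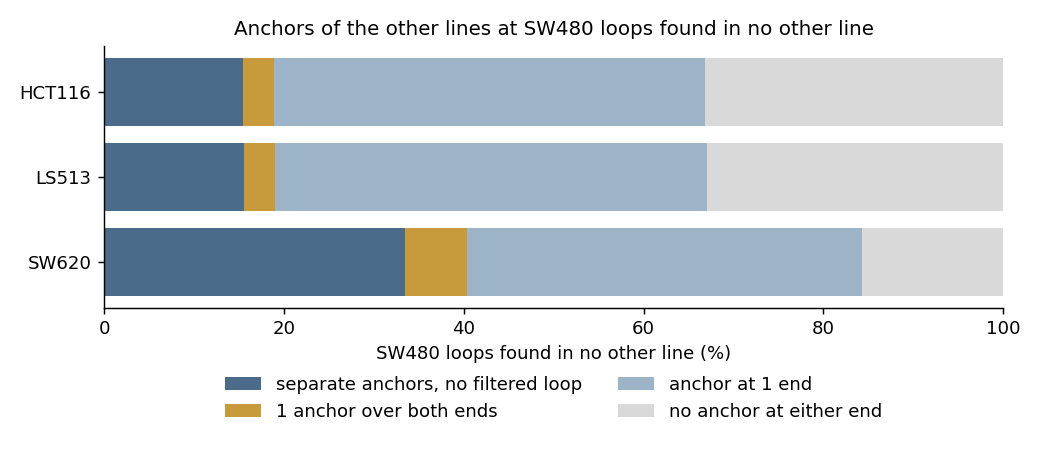
For the 2831 SW480 loops found in no other line, percent of loops by what HCT116, LS513 and SW620 hold at the 2 ends: separate anchors without a filtered loop, 1 anchor over both ends, an anchor at 1 end, or none. Separate anchors are present for 15.5% in HCT116 and in LS513 and for 33.5% in SW620.

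The strongest loop found in no other line, with 23 PETs, joined chr17:70373978-70393184 with chr17:70400123-70430170, between SOX9 and COG1. HCT116 and LS513 each had 1 anchor over both ends there, and SW620 had none at either end. A loop of 19 PETs joined chr19:13948029-13963619 with chr19:13970795-13977992, and in all 3 other lines a single anchor overlapped both ends. A loop of 14 PETs between chr1:16464044-16475245 and chr1:16486729-16512726, on both sides of the start of the ephrin receptor gene EPHA2, had no anchor at either end in any other line. Further ones were a loop of 13 PETs at LZTS2 (chr10:102753132-102764270 with chr10:102765058-102774068) and a loop of 10 PETs at the pseudokinase gene TRIB2 (chr2:12854286-12874111 with chr2:12912180-12921737). At TRIB2 each other line had an anchor at 1 end. At LZTS2 HCT116 and LS513 had an anchor at 1 end and SW620 had 1 anchor over both.

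The loops that matched shared loops also held more PETs than the other loops of their line. In SW480 the shared loops held 3.07 PETs per loop, against 1.72 in all other SW480 loops. HCT116 had 1453 matching loops with 4.87 PETs per loop, against 1.90 in its other loops. LS513 had 1551 with 12.03 PETs, against 2.79, and SW620 had 1436 with 10.8 PETs, against 2.26. The matching loops made up 3.57% of all loops of HCT116 and 8.67% of its PETs, 2.08% and 8.40% for LS513, and 2.31% and 10.1% for SW620. Their median span was close to that of SW480, with HCT116 at 59.1 kb, LS513 at 60.4 kb and SW620 at 61.6 kb, while the other loops of each line had medians of 133, 192 and 151 kb. Matching loops were chosen by meeting a loop listed in SW480, the library with the fewest PETs. In the other lines PETs were not compared at matched span, so the difference there is a description only. A match could rest on 1 PET: 588 of the 1338 shared loops (43.9%) had 2 or more PETs in the strongest loop of every line, 140 (10.5%) had 5 or more and 28 (2.09%) had 10 or more. In SW480 543 shared loops (40.6%) rested on 1 PET, with HCT116 at 298 (22.3%), LS513 at 108 (8.07%) and SW620 at 141 (10.5%). Matches were not all separate, since in HCT116 130 shared loops had a matching loop in common with another shared loop, as had 130 in LS513 and 167 in SW620.

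Across the 1338 shared loops, the PETs of SW480 and of another line ranked alike only in part, with a Spearman rho of 0.41 for SW620, 0.35 for LS513 and 0.32 for HCT116. The rho between HCT116 and LS513 was 0.66, and that of SW620 was 0.51 with HCT116 and 0.50 with LS513. The points are the same loops in 1 library per line, and their counts share anchor width and differ in depth. In normalised PETs SW480 was higher at most shared loops, with median ratios to HCT116, LS513 and SW620 of 3.53, 3.999 and 3.66. Over all SW480 loops found in the line compared the medians were 3.92, 5.33 and 4.80, so a ratio above 1 is the usual case for a loop listed in SW480. The exact 95% interval of the ratio lay above 1 for 293 shared loops (21.9%) against HCT116, where the background over all SW480 loops found in HCT116 was 18.7%. Against LS513 it did for 359 (26.8%, background 23.8%) and against SW620 for 302 (22.6%, background 19.7%). It lay below 1 for 5 (background 0.583%), 4 (0.478%) and 5 (0.394%) shared loops. These shares are near the background.

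Most of the loops described next were chosen for their SW480 PETs, which favours high values in SW480, so its place in the order is a description only. The shared loop with most SW480 PETs joined the anchor with the AXIN2 start, chr17:63551487-63562753, to the upstream segment chr17:63573781-63609729. It had 42 PETs (3025 normalised) in SW480, with HCT116 at 17 (208), LS513 at 65 (293) and SW620 at 141 (925). SW480 was highest and SW620 next. The ratio of SW480 to SW620 was 3.27 (exact 95% interval 2.26 to 4.64), below the median of 3.66, and the ratios to HCT116 and LS513 were 14.5 (8.09 to 27.2) and 10.3 (6.84 to 15.5). The loop from chr16:50477708-50515857 to the anchor with the NKD1 start, chr16:50549546-50590722, had 41 PETs (2953 normalised) in SW480, with HCT116 at 7 (85.8), LS513 at 26 (117) and SW620 at 260 (1706). Here SW480 and SW620 stood above the other lines, with a ratio of SW480 to SW620 of 1.73 (1.21 to 2.41) and to HCT116 of 34.4 (15.3 to 90.9). Scaled by the PETs of chromosome 16 the ratios were 5.86 (4.11 to 8.17) and 90.1 (40.04 to 238), so the distance to SW620 depends on the scaling. A further loop of the same distal anchor, to chr16:50526215-50543435 upstream of NKD1, repeated this order with 1656 normalised PETs in SW480, with HCT116 at 73.5, LS513 at 94.5 and SW620 at 971.

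Near AXIN2, 3 further loops were among the 12 with most SW480 PETs. Between chr17:63675064-63722234 and chr17:63732018-63756456, inside CEP112, a gene of a centrosomal protein, SW480 had 21 PETs (1512 normalised), with HCT116 at 1 (12.3), LS513 at 4 (18.01) and SW620 at 14 (91.9). Between chr17:63573781-63609729 and the same CEP112 segment it had 20 PETs (1440 normalised), against 2 (24.5), 7 (31.5) and 34 (223) in HCT116, LS513 and SW620. On the other side of AXIN2, between chr17:63350246-63377181 and chr17:63383214-63405884, it had 18 PETs (1296 normalised), against 2 (24.5), 23 (104) and 2 (13.1). Of the other lines SW620 was the highest in the first 2 of these loops and LS513 in the last. Of the weaker loops of the AXIN2 start, that from chr17:63449182-63457741 was closer to even. It had 5 PETs (360 normalised) in SW480, with HCT116 at 9 (110.3), LS513 at 36 (162) and SW620 at 25 (164), and all 3 intervals of its ratios included 1. All shared loops of the AXIN2 start together had 5618 normalised PETs in SW480, with HCT116 at 809, LS513 at 977 and SW620 at 1666.

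The loops with the highest minimum over the 4 lines were closer to even, which that choice favours. The loop inside DLGAP1, a gene of a postsynaptic scaffold protein, between chr18:3601148-3627176 and chr18:3647025-3673783, had 31 PETs (2233 normalised) in SW480, with HCT116 at 145 (1777), LS513 at 128 (576) and SW620 at 94 (617). Its minimum was the highest of all shared loops. Its ratio of SW480 to HCT116 was 1.26 (interval 0.823 to 1.86). It was 0.421 (0.276 to 0.623), below 1, when scaled by the PETs of chromosome 18, and 2.02 (1.30 to 3.07), above 1, when only the strongest matching loop of HCT116 was counted. The loop at the keratin genes KRT8 and KRT18, whose products pair into filaments of simple epithelia, joined chr12:53296747-53324808 with chr12:53334914-53346757. It had 10 PETs (720.2 normalised) in SW480, with HCT116 at 49 (601), LS513 at 194 (873) and SW620 at 75 (492), and all 3 intervals of its ratios included 1. Scaled by the PETs of chromosome 12, the ratio of SW480 to LS513 was 0.432 (0.204 to 0.811), below 1. The loop between the TRIB3 and RBCK1 starts, chr20:357604-364717 with chr20:379133-391807, whose promoters are printed above, had 14 PETs (1008 normalised) in SW480, against 68 (834), 79 (356) and 64 (419.9) in HCT116, LS513 and SW620. The loop between the NEAT1 and MALAT1 starts, chr11:65182545-65192945 with chr11:65252117-65269820, joins the genes of 2 abundant nuclear RNAs. It had 14 PETs (1008 normalised) in SW480, against 29 (355), 111 (499.7) and 58 (381).

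Upstream of PTMA, the gene of prothymosin alpha, chr2:232475235-232488426 was joined to chr2:232524504-232541900 with 18 PETs (1296 normalised) in SW480, with HCT116 at 36 (441), LS513 at 143 (644) and SW620 at 78 (512). The same anchor was joined to the neighbouring chr2:232542405-232555722 with 7 PETs (504 normalised) in SW480. Both SW480 loops matched the same loop in each other line, so those counts are not separate measurements. At PCBP1, the gene of an RNA-binding protein, chr2:70308955-70319161 with chr2:70357849-70374540 had 26 PETs (1873 normalised) in SW480, against 20 (245), 67 (302) and 93 (610.2) in HCT116, LS513 and SW620. At EHF, chr11:34616955-34636368 with chr11:34637614-34679829 had 24 PETs (1728 normalised), against 35 (429), 67 (302) and 54 (354). The other lines lay close together at EHF, and all 3 ratios of SW480 to them, 4.03, 5.73 and 4.88, had intervals above 1. At PHLDA1, chr12:76336732-76382021 with chr12:76399838-76431165 had 22 PETs (1584 normalised), against 20 (245), 52 (234) and 71 (466). At CCNL1, chr3:156876141-156880108 with chr3:156890752-156895361 had 20 PETs (1440 normalised), against 45 (552), 64 (288) and 49 (321).

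**Figure D4:**
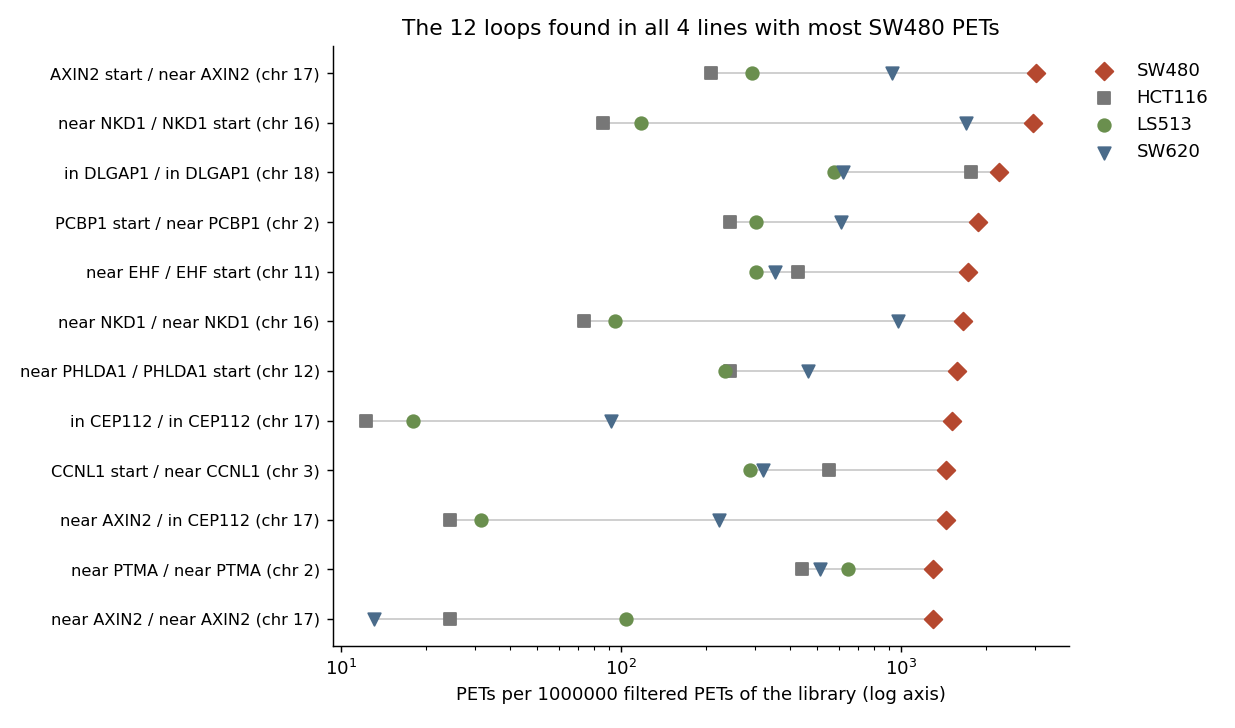
Normalised PETs (log axis) in SW480, HCT116, LS513 and SW620 of the 12 loops found in all 4 lines with most SW480 PETs; each row is a loop, named by the genes at or near its 2 ends, and the grey line runs from the lowest to the highest library. The rows were chosen by their SW480 PETs, and SW480 is the highest library in all 12. SW620 comes next at the AXIN2 start and at NKD1, and the spread is widest for the CEP112 and AXIN2 neighbours.

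Shared loops with long spans were few and thin. Among those with 2 or more SW480 PETs the longest spanned 572 kb, from chr17:70595250-70638604, between SOX9 and COG1, to the start of COG1, a Golgi tethering subunit, at chr17:71187173-71190357. It held 2 PETs in SW480, with HCT116 at 1, LS513 at 6 and SW620 at 12. The next spanned 562 kb, with BMP4 between its anchors (chr14:54074553-54089949 with chr14:54622584-54665423). It had 2 PETs in SW480, against 2, 6 and 1 in HCT116, LS513 and SW620. Loops of 555 kb (chr1:20244387-20254356 with chr1:20799145-20809582, nearest to CAMK2N1) and 549 kb (chr2:171829260-171832022 with the CYBRD1 start at chr2:172377540-172381685) also had 2 PETs in SW480. At these counts the ratios are loosely bounded. That of SW480 to LS513 for the loop near CAMK2N1, for example, has an interval of 1.16 to 221.

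The 1338 shared loops used 1671 anchors and fell into 556 networks joined through shared anchors. Of the loops, 597 (44.6%) lay in 71 networks of 5 or more loops. The largest network, around AXIN2 at chr17:63215299-63788133, held 44 loops between 17 anchors and 285 PETs, or 6.93% of the SW480 PETs of all shared loops. In normalised PETs this was 20526 in SW480, with HCT116 at 2072 (169 PETs), LS513 at 3480 (773 PETs) and SW620 at 3549 (541 PETs). Sums over networks or genes start from loops listed in SW480, which favours SW480, and none has an interval. As background, all shared loops held 29.6% of the SW480 PETs. Their matching loops held 8.67% of the PETs of HCT116, 8.40% of LS513 and 10.1% of SW620. Of the 107 SW480 loops inside the interval, 22 were found in no other line, where the share over all SW480 loops was 40.3%. The network is built from shared loops, which favours a low count. The anchors with most shared loops were chr17:63507415-63534971, over the 3′ part of AXIN2, with 12 shared loops of 19 in SW480, and the AXIN2 start with 9 of 15. Next, 4 anchors tied at 8 shared loops. They were chr12:76336732-76382021 downstream of PHLDA1 (of 15 in SW480), chr14:54622584-54665423 on the BMP4 side (of 17), and chr17:63449182-63457741 (of 14) and chr17:63573781-63609729 (of 18) in the AXIN2 network.

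The next network by number of loops, at IRF2BP2, a transcriptional corepressor, held 22 loops (chr1:234612409-235151166) with 3241 normalised PETs in SW480, with HCT116 at 649.7, LS513 at 949.97 and SW620 at 1614. That at BMP4, a secreted ligand of the BMP pathway, held 20 loops (chr14:54074553-54817128) with 6482 normalised PETs in SW480, against 932, 1265 and 1063. That at FOXQ1, a forkhead transcription factor, held 15 loops with 3961 normalised PETs in SW480, against 466, 333 and 1555, where SW620 was the next library. Networks of 10 to 15 loops also lay at IER3 with TUBB and FLOT1, IRF1, LMNA, CDKN1B with GPRC5A and EMP1, PHLDA1, BCOR and MMP14. Others of that size lay at HEXIM1 with HEXIM2, CLTC with MIR21, PTMA, THRA with NR1D1 and RARA, and XBP1 with ZNRF3. A further 2 of 10 loops had no placed gene start at an anchor. In the network at IER3, TUBB and FLOT1 the values were 3025 in SW480, against 1410, 707 and 1325. Of the 18 SW480 loops inside it, 1 was found in no other line, where the share over all SW480 loops was 40.3%. Such low counts were also seen in other networks, with 0 of 23 at LMNA and 1 of 16 at HEXIM1 with HEXIM2. Networks are built from shared loops, which favours a low count.

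Some shared loops joined the starts of 2 placed genes. They numbered 12 and included CDKN1B, a cell cycle inhibitor, with GPRC5A (5 PETs in SW480, with HCT116 at 7, LS513 at 16 and SW620 at 21), BRD7, a bromodomain protein, with NKD1 (6, against 2, 11 and 75), and AXL, a receptor tyrosine kinase, with HNRNPUL1 (13, against 14, 14 and 32). In normalised PETs SW480 and SW620 had 360 and 138 at the first, 432 and 492 at the second, and 936 and 209.9 at the third. The ratio of SW480 to SW620 had an interval above 1 at the third loop (4.46, 2.15 to 8.74) and included 1 at the others. The related genes HEXIM1 and HEXIM2, inhibitors of transcription elongation, were joined with 5 PETs in SW480, against 16, 66 and 27, and NR1D1 with RARA, both nuclear receptors, with 2, against 1, 5 and 6. XBP1, a factor of the unfolded protein response, and ZNRF3, a ubiquitin ligase that removes WNT receptors, were joined with 1 PET in SW480, against 1, 4 and 2.

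Of the WNT targets and feedback genes, 7 of 16 had a start at an anchor of a shared loop, namely AXIN2, ASCL2, NKD1, ZNRF3, TCF7L2, EPHB3 and CCND1, where over all 7 gene lists 31 of 99 placed genes had one. At an anchor of a loop found in no other line were 3 (AXIN2, SP5 and CCND1), and at any SW480 loop 10. Summed over the shared loops of the gene, ASCL2, a stem cell transcription factor, had 648 normalised PETs in SW480 from 9 PETs, with HCT116 at 135, LS513 at 657 and SW620 at 335, so LS513 was level with SW480. TCF7L2, the main TCF factor of the gut, had 504 in SW480 from 7 PETs, against 294, 131 and 217, with 1 loop spanning 425 kb. CCND1, cyclin D1, had 576 in SW480 from 8 PETs, against 98.1, 76.5 and 217. EPHB3 had 1 PET in SW480, against 1, 2 and 9.

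Of the epithelial junction and keratin genes, 8 of 15 placed had a start at a shared loop (EPCAM, CLDN4, KRT8, KRT18, DSP, JUP, ITGB4 and LAMB3) and 5 at a loop found in no other line. CLDN4, a tight junction claudin, had 1152 normalised PETs in SW480 from 16 PETs, with HCT116 at 637, LS513 at 761 and SW620 at 381. ITGB4, a hemidesmosome integrin, had 72.0 in SW480 from 1 PET, against 172, 311 and 499, and there SW480 was lowest. Of the intestinal transcription factors, 2 of 15 were at shared loops, KLF5 and EHF, and the same 2 at loops found in no other line. KLF5, a regulator of epithelial growth, had 288 in SW480 from 4 PETs, against 159, 369 and 144. Of 18 AP-1 and immediate early genes, 8 were at shared loops (FOSL2, JUN, JUNB, JUND, IER3, DUSP4, SPRY4 and SPRED2) and 6 at loops found in no other line. Among them IER3 had 936 in SW480 from 13 PETs, against 527, 302 and 925. Of 11 growth factor signalling genes, 2 (ERBB2 and IGF1R) and 0 were. Of 14 housekeeping genes, 4 (ACTG1, GAPDH, EEF1A1 and TUBA1B) and 3 were.

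No start of the 10 placed mesenchymal genes or the 7 placed markers of immune, endothelial and fibroblast cells was at a shared loop, and 1, COL1A1, was at any SW480 loop. Of the 10 colon epithelium markers, 4 were at a shared loop, EPCAM, KRT8, KRT18 and the intestinal surface antigen GPA33, with 1 at a loop found in no other line. Of the 99 placed genes of all lists, 19 were at a loop found in no other line and 45 at any SW480 loop. At any loop of the other lines were 86 in HCT116, 85 in LS513 and 86 in SW620. Most of the listed genes without a shared loop had no SW480 loop at all.

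The shared loops were spread unevenly over the chromosomes. Chromosome 17 held 161 of them (12.03%, interval 10.3 to 13.9), against 5.58% (4.76 to 6.49) of the loops found in no other line. Without the AXIN2 network the shares were 9.04% and 4.84%, and with every anchor set to 5 kb 10.04% and 7.68%, with intervals that overlapped. Chromosome 1 held 12.5% and 8.16%, chromosome 19 held 3.89% and 1.20%, and chromosome 22 held 2.62% and 0.707%, with intervals that did not overlap. The shared loops held the smaller share on chromosomes 3 (3.44% and 6.68%), 7 (2.84% and 7.17%) and 18 (1.05% and 3.39%), also with separate intervals. With every anchor set to 5 kb the intervals overlapped on chromosomes 1 and 3 as well, and stayed apart on 7, 18, 19 and 22. Among SW480 loops with anchors in every line, the intervals overlapped on all 7 of these chromosomes. There chromosome 17 held 12.03% of the shared loops and 8.23% of the 401 loops found in no other line, and chromosome 19 held 3.89% and 3.99%. Of the SW480 loops of a chromosome, 38.9% were shared on chromosome 22, 34.2% on 19, 33.0% on 16 and 28.3% on 17, and 8.92% on 18 and 10.2% on 7. Chromosome 18 had only 14 shared loops, with a mean of 5.86 PETs that rested mostly on 1 locus. Of their 82 PETs the DLGAP1 loop held 31, and its network of 6 loops held 63. Whether the number of loops that the other lines hold on each chromosome moves with these shares was not tested.

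**Figure D5:**
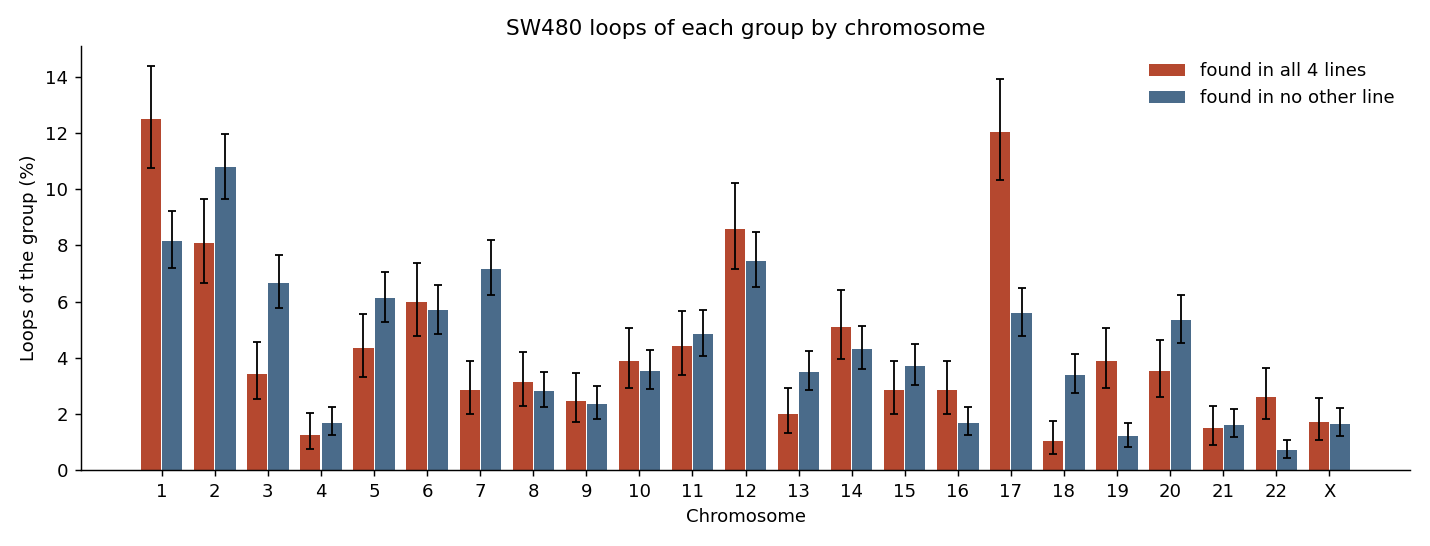
Percent of SW480 loops on each chromosome, for loops found in all 4 lines (red) and in no other line (blue); lines are exact 95% intervals (counting error only). Chromosomes 1, 17, 19 and 22 hold a larger share of the shared loops and chromosomes 3, 7 and 18 a smaller one.

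At the edge of the rule, the narrowest overlaps of loops counted as found were 209 bp (chr13:114548778-114900271), 349 bp (chr2:85762474-85808378) and 389 bp (chr2:27925232-27987668), each with 1 SW480 PET, given here as outer limits of the 2 anchors. Just outside, 3 loops found in 2 other lines missed the last line by 1 bp, at chr1:39575005-39667009 (1 PET, LS513), chr17:55475725-55505142 (3 PETs, SW620) and chr22:21303132-21339288 (2 PETs, HCT116). An overlap under 1 kb decided 21 of the 1338 shared loops (1.57%), and 38 of the 997 loops found in 2 other lines missed by under 1 kb. The median of the smallest overlap was 4216 bp.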

How the data were processed

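H3K27ac HiChIP of 4 untreated colorectal cancer cell lines was used, 1 library per line. The submitters' processing notes name HiC-Pro and the build hg19 (GRCh37). For the loop caller and the anchor source nothing is given in the sources used here. Whole-number counts of PETs per pair of anchors were deposited in 3 tables: within a chromosome with same-anchor pairs, filtered (anchor midpoints 5 kb to 2 Mb apart, as checked on the files), and between chromosomes. A further deposited table repeated the filtered counts with a number from 0 to 1 in a column without header, taken here for an FDR, that is, an adjusted p-value by the authors.

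The members and the gene lists were chosen with earlier results of these data known. Loops named are the 12 shared loops with most SW480 PETs, the 6 with the highest minimum of normalised PETs over the lines, the 4 longest with 2 or more PETs, the 3 anchors with most shared loops and those tied with them, 3 loops on each side of the rule, and the 6 strongest loops found in no other line, 1 of which is not reported here. Gene positions on hg19 were written from general knowledge. Of 193 genes, 186 were kept, 155 of them with ends shifted alike within 1 kb against RefSeq GRCh38.p14, while the strand was checked for 141. Coordinates were not converted between builds. Networks and gene values in the other lines count each matching loop once.

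Percents have exact Clopper-Pearson 95% intervals, and ratios of normalised PETs exact conditional ones, which cover counting error only. Filtered PETs ranged from 13885 to 222113, and the floor of 3 counts that a 0 allows was 216 normalised PETs for SW480 and 13.5 for LS513. The matching of loops and the ratio calls were tested on simulated data. Alternatives changed the overlap, the anchor width, the strength asked for, the loops counted, the lines asked for and the scaling. Counting only SW480 loops with 1 PET, leaving out the largest network, and the alternatives for chromosomes 1, 3, 7, 18 and 22, were chosen after seeing the data. The software was networkx 3.6.1, scipy 1.17.1, numpy 2.4.6, pandas 2.3.3 and matplotlib 3.10.9 under Python 3.11.15.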

Additional observations from a re-analysis of the deposited data

How the results depend on the processing

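With 1 library per line no test was run, and moves are given by size. The number of loops found in all 4 lines, 1338 (19.0%), was 1260 (17.9%) when overlaps had to cover 50% of the shorter anchor, and 737 (10.5%) with every anchor set to 5 kb. It was 891 (12.7%) with 2 or more PETs in the other lines, and 339 (4.83%) with a mango value under 0.01 there. Of the SW480 loops with 2 or more PETs 795 (31.7%) were found, and of those with anchors in every line 45.7%. Loops found in no other line numbered 4942 with that mango value, and 2909 to 4338 when 1 of the other lines was left out, highest without SW620. Leaving out 1 of the other lines gave 1436 to 1884 shared loops (20.4% to 26.8%), a median span of 57.1 to 66.1 kb for shared loops and 78.9 to 97.6 kb for loops found in no other line, 53.9% to 57.8% and 22.6% to 28.8% with 2 or more PETs, and anchor widths of 9.44 to 9.503 kb and 8.11 to 8.67 kb.

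The median span of shared loops was 49.2 kb with 5 kb anchors. Weighted by PETs it was 51.9 kb, against 60.1 kb for loops found in no other line. It was below that of loops found in no other line in 11 of 13 settings and above it in 2, namely for SW480 loops with 2 or more PETs (52.1 kb against 31.5 kb) and with a mango value under 0.01 in the other lines (97.1 kb against 71.0 kb). For SW480 loops with 1 PET it was 70.3 kb against 133 kb, and with anchors in every line 58.4 kb against 389.8 kb. The share with 2 or more PETs was 56.4% against 28.8% with 5 kb anchors, and 17.5% of loops found in no other line with anchors in every line. In the span classes from 5 to 20 kb up to 500 to 2000 kb it was 62.1%, 65.0%, 61.9%, 55.4%, 42.7% and 29.4%, against 43.1%, 35.1%, 24.3%, 16.998%, 10.1% and 3.596%. The narrower anchor had medians of 5.56 kb against 4.79 kb. Same-anchor PETs per kb were 2.69 against 1.51, and per anchor with anchors in every line 27 against 18.5. The cause of these moves was not tested.

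Scaling by the PETs of each chromosome moved the ratio of the DLGAP1 loop to HCT116 from 1.26 to 0.421 (interval 0.276 to 0.623). It ended 7 calls among the named loops, those of the DLGAP1 loop against LS513 and SW620, of the stronger loop upstream of PTMA against all 3 lines, of the 562 kb loop against SW620 and of the 549 kb loop against LS513. It added 2 against LS513, below 1, for the KRT8 and KRT18 loop (0.432) and the other loop upstream of PTMA (0.418), and left the call of 50 of the 60 ratios as it was. It moved 28 of the 60 by over 1.5 times, 18 of them with the same call, among them the ratios of both NKD1 loops to every line and those of the PCBP1 loop (to SW620 from 3.07 to 1.75). Counting only the strongest matching loop moved 13 of the 60 by over 1.5 times and added 2 calls against HCT116, for the DLGAP1 loop (2.02) and the loop between TRIB3 and RBCK1 (2.06, 1.03 to 3.86). No paired analysis was possible because each line had 1 library. The share of loops with a gene start and its alternatives were not run, since no hg19 annotation was used. On the SW480 side 40.6% of the shared loops rest on 1 PET, and loops not listed in SW480 could not enter the rule. SW480 had 13885 filtered PETs, the fewest, and 9350 anchors, with HCT116 at 21930 anchors, LS513 at 22136 and SW620 at 24555. What part each of these had was not tested.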

Other observations

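Among the 559 loops found in no other line that spanned under 20 kb, 39 had 5 or more PETs. At 25 of these 39 (64.1%) a single anchor of at least 1 other line overlapped both ends. The share was 37.6% among all 559 of this span and 8.16% among all loops found in no other line. None of the 39 had separate anchors in every line. At 200 kb or more, 253 of the 901 loops found in no other line (28.1%) had separate anchors in every other line and no filtered loop, against 3 (0.537%) of those under 20 kb.

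In normalised PETs the order of the lines differed between genes. At BMP4 the loop to chr14:54622584-54665423 had 3 PETs in SW480, with HCT116 at 11, LS513 at 66 and SW620 at 7, and all shared loops at the BMP4 start had 1152 normalised PETs in SW480, against 466, 851 and 269. At GPA33 they had 432 in SW480, against 135, 279 and 59.0. On this scale LS513 was the next library after SW480 in both genes, while at FOXQ1 (1080 in SW480, against 184, 203 and 669) and IER3 it was SW620. The SW480 sums came from 16 PETs at BMP4, 6 at GPA33, 15 at FOXQ1 and 13 at IER3, and have no interval. Scaling by the PETs of chromosome 14 multiplies each ratio of SW480 to LS513 by 0.617. With that scaling LS513 stood above SW480 at BMP4, so the order there depends on the scaling.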
